A study of Mus musculus with 40 samples.

Results

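Long intergenic non-coding RNAs (lincRNAs) are spliced or unspliced transcripts that encode no known protein and start away from protein-coding genes. The promoters described here belong to autosomal genes of the lincRNA type in the mouse GENCODE annotation and lie more than 5000 bp from every protein-coding transcript start. A promoter was taken as 2000 bp upstream to 1000 bp downstream of a transcript start, and a gene held a mark when a peak touched any of its promoters. The rule kept 6303 promoters of 4586 genes, out of 125977 promoters of 51229 autosomal genes of all types. The annotation held 7173 autosomal lincRNA promoters in 5209 genes, and 870 of these promoters lay too close to a coding start. Of the genes kept, 3636 had 1 promoter and 950 had more, up to 28. Most had only catalogue names, with 3184 called Gm and a number and 910 ending in Rik. The median distance to the nearest coding start was 73.7 kb. By their annotation 6080 starts were intergenic, 183 lay in an intron and 40 in an exon of a coding gene, so that 3.54% were not intergenic in the strict sense.

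The libraries came from oligodendrocyte precursor cell (OPC) cultures, the dividing glial cells that give rise to myelinating oligodendrocytes. Brains of hGFAP-Cre;K27M litters (written AMGFAP-Cre;K27M in the labels) were taken on postnatal day 5 to 7, and tissue was pooled by region and genotype. The K27M cultures came from mice with the conditional *H3-3a-LSL-K27M* knock-in allele, which makes H3.3 K27M from the endogenous locus once Cre has removed a stop cassette. The control cultures came from littermates without H3.3 K27M, and both were on an FVB background. The *hGFAP* promoter drives Cre in neural stem and progenitor cells and not in OPCs alone. Cells were depleted of endothelial cells and microglia on BSL1, panned on anti-PDGFRa and grown in proliferation medium with PDGF, neurotrophin-3, CNTF and forskolin, without differentiation. There were 10 cultures in 5 matched pairs of control and K27M, 2 pairs from brainstem (59 and 61) and 3 from dorsal telencephalon (59, 60 and 61), which the labels call cortex. Each culture gave 1 H3K4me3 and 1 H3K27me3 ChIP-seq library, so that 20 peak lists were analysed.

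H3K4me3 marks promoters that are active or poised, and is laid down chiefly at CpG-rich DNA. H3K27me3 is the product of Polycomb repressive complex 2 (PRC2) and covers silent developmental genes. A promoter with both marks is called bivalent, a state known best from transcription factor genes in stem and progenitor cells. The K27M form of histone H3.3 inhibits PRC2, and genome-wide loss of H3K27me3 with retention at strong Polycomb sites is its known effect. Mapped lincRNA promoters are usually poor in CpG and less often active than coding promoters. In bulk chromatin, fewer cells with a mark and less of the mark per cell cannot be told apart.

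The promoters that carry the main patterns are printed here from the RefSeq genome sequence, as 250 bases before to 50 after the transcript start on build mm10 (GRCm38), with each CpG in capitals. *3110039M20Rik* (chr12:49390409-49390708, plus strand) was the first of the genes with H3K4me3 in telencephalic cultures alone. *CT033772.2* (chr17:32877893-32878192, minus strand) led the genes with H3K27me3 in every control and no K27M library. *5033428I22Rik* (chr8:57340550-57340849, plus strand) led those with H3K27me3 in all 10 libraries. *Gm11378* (chr13:31618918-31619217, plus strand) and *Gm10830* (chr15:103101987-103102286, plus strand) led the genes that were bivalent in the controls of both regions.
3110039M20Rik: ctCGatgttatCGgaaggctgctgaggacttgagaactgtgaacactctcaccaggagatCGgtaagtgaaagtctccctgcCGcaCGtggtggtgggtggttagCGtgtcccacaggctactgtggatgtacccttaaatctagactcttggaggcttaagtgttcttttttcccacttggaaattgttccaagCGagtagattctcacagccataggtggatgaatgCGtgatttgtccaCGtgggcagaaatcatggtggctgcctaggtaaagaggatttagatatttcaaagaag
CT033772.2: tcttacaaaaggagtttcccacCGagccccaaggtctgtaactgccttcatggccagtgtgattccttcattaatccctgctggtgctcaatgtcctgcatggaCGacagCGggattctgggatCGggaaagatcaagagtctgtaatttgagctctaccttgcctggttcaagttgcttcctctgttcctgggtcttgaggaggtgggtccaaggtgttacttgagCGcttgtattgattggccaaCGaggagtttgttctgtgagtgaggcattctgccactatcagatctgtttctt
5033428I22Rik: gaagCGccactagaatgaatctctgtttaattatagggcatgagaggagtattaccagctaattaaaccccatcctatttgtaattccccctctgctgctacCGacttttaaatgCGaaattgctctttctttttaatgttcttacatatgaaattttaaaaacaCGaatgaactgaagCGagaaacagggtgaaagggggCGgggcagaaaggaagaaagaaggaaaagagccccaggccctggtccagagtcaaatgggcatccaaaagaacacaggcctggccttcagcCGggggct
Gm11378: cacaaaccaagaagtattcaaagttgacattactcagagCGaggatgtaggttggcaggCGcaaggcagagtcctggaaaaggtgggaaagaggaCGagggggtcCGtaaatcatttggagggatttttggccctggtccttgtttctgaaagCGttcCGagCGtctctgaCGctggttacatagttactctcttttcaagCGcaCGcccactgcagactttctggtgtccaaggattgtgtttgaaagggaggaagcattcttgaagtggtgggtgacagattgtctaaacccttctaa
Gm10830: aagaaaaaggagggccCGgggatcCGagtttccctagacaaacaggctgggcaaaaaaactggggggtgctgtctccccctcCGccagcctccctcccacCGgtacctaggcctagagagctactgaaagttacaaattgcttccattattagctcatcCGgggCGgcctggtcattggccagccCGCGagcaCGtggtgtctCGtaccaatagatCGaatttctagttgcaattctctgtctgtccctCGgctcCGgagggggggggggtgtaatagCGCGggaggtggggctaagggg

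The 5 windows held 9, 6, 7, 10 and 15 CpGs in this order, against a median of 4 in the same 300 bases of all 6303 lincRNA promoters and 12 in coding promoters. Read on both strands, the GC box core GGGCGG was found in 9.63% of lincRNA windows, 43.5% of coding windows and 31.0% of all autosomal windows, and among the printed windows in *5033428I22Rik* and *Gm10830*. The TATA box core TATAAA was found in 16.9% of lincRNA, 11.3% of coding and 13.7% of all windows, and in none of those printed. Among the 436 lincRNA promoters with H3K4me3 in all 10 libraries, 38.1% held the GC box core and 10.1% the TATA core. Among the 5185 with H3K4me3 in no library, these shares were 6.46% and 17.8%. The GC box core stood in 28.8% of the 118 promoters with H3K27me3 in all 10 libraries and in 6.45% of the 31 with it in every control and no K27M library.

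Peak lists carry no read depth, and the number of peaks is not a measure of it. H3K4me3 libraries held 20961 to 31200 peaks and H3K27me3 libraries 4739 to 64808. Telencephalon culture 59 stood apart, with the fewest H3K27me3 peaks and the fewest H3K4me3 peaks of the controls, and its libraries were numbered apart from the rest in the list of read files. In the read totals that the study reports, its control and K27M libraries had the most reads for each mark. The cause of its low peak numbers was not tested. The OPC genes *Pdgfra*, *Cspg4*, *Olig1*, *Olig2*, *Sox10* and *Gpr17* had H3K4me3 in all 10 libraries and H3K27me3 in none. The microglial genes *Aif1* and *Csf1r* and the endothelial gene *Pecam1* had neither mark in any library, and *Cx3cr1* had no H3K4me3. Other markers were less clear-cut, since the astrocyte genes *Aqp4*, *Gfap*, *Aldh1l1* and *Gja1* had H3K4me3 in 1, 6, 6 and 10 libraries, microglial *P2ry12* in 8, endothelial *Cldn5* in 5 and *Flt1* in 10, and the neuronal genes *Rbfox3*, *Snap25* and *Syt1* in 10. The telencephalic gene *Emx2* had H3K4me3 in 6 of 6 telencephalon and 2 of 4 brainstem libraries, and *Hoxb2*, a hindbrain gene, in 0 of 6 and 4 of 4. *Hoxb3* had it in 1 of 6 and 4 of 4 and *Hoxa2* in 2 of 6 and 4 of 4, while *Emx1* of the telencephalic list and *Irx3* of the brainstem list had it in every library of both regions.

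Between 6.85% and 12.6% of lincRNA genes carried H3K4me3 in a library, with similar shares in control and K27M cultures. In brainstem controls 406 and 406 genes had a peak, and in their K27M partners 499 and 334 for cultures 59 and 61. In telencephalon controls the counts were 314, 500 and 576 for cultures 59, 60 and 61, and in their K27M partners 349, 490 and 537. The order of cultures was the same in both genotypes of the telencephalon, and the groups overlapped fully. The mean was 9.60% ± 2.19 (SD, n = 5) in controls and 9.63% ± 2.04 (SD, n = 5) in K27M. The paired difference was 0.03 percentage points ± 1.41 (SD), lower in 3 of 5 pairs (two-sided exact sign-flip permutation test, p = 1), and turned to -0.469 points without brainstem culture 59 and to -0.153 without telencephalon culture 59. With 5 pairs this exact test cannot go below p = 0.0625, and its p-values measure only the spread between these cultures. Numbers 59 and 61 occur in both regions, and the study does not state whether pairs of the same number came from the same litters. The tests over pairs treat them as independent.

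**Figure D1:**
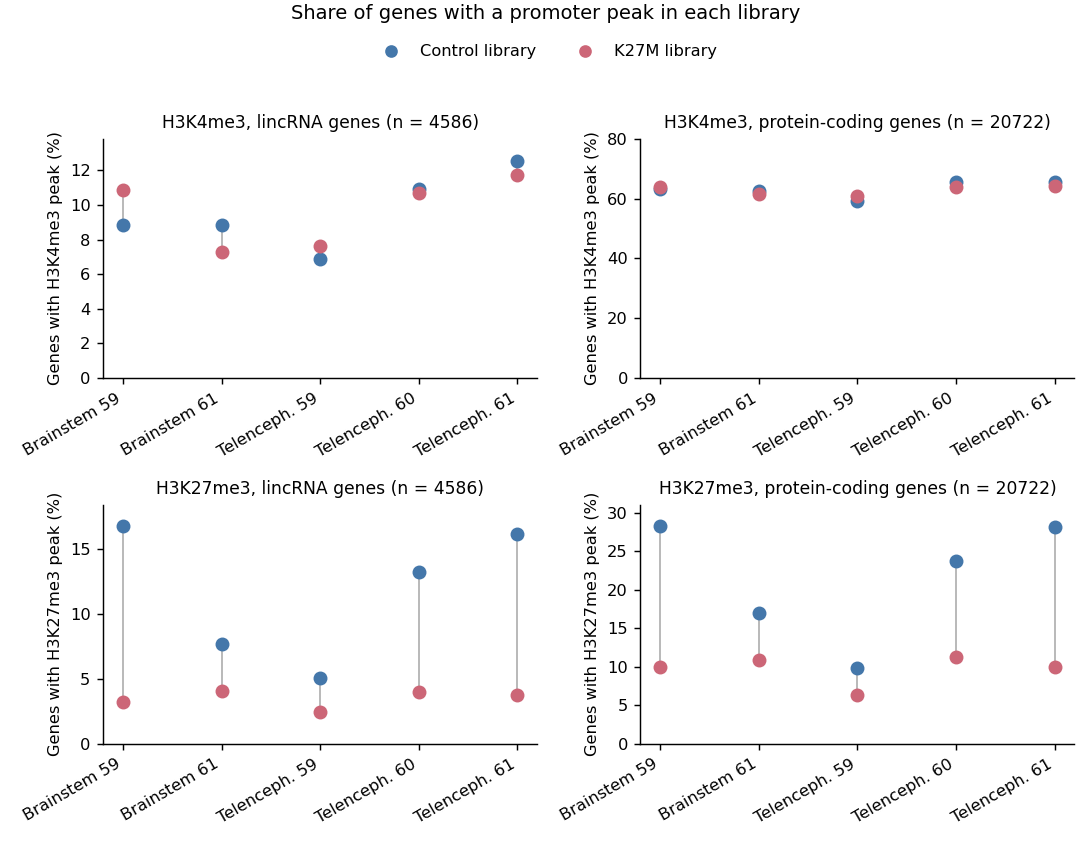
Share of lincRNA genes (left) and protein-coding genes (right) with a promoter peak of H3K4me3 (top) or H3K27me3 (bottom), in percent, for each matched pair. Points are single libraries joined by pair. At lincRNA genes the H3K4me3 points of a pair lie close together and every K27M H3K27me3 point lies under its control.

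H3K4me3 at lincRNA genes differed from that at coding genes in each library. The share was 6.85% to 12.6% at lincRNA genes and 59.3% to 65.6% at the 20722 autosomal coding genes, a difference of -53.5 points ± 0.740 (SD), lower in 10 of 10 libraries (exact sign-flip permutation test over libraries, p = 0.00195, the smallest it can give). Where a peak was present it was weaker and narrower. The median fold enrichment over input was 3.65 to 8.93 at lincRNA promoters and 3.93 to 61.3 at coding promoters, a mean ratio of 0.356 within a library. Median widths were 811 to 1079.5 bp and 1499 to 2345 bp, a ratio of 0.479. The summit lay downstream of the start for 54.3% to 60.9% of lincRNA peaks and 71.5% to 74.6% of coding peaks, and within 500 bp of it for 57.1% to 62.6% and 72.4% to 77.6%. Each of these measures was lower at lincRNA promoters in 10 of 10 libraries (exact sign-flip permutation test, p = 0.00195). The 10 libraries are 5 matched pairs and not 10 independent samples. These p-values treat them as independent and are too small as a measure of the spread between cultures. The tests over libraries were not among the planned ones.

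The mark was also less constant across cultures. An H3K4me3 peak was present in at least 1 library at 735 lincRNA genes (16.0%), of which 239 (32.5%) had it in all 10 and 122 in 1 only. At coding genes with the mark in any library, 87.5% had it in all 10. H3K27me3 was present in at least 1 library at 1067 lincRNA genes (23.3%), of which 87 (8.15%) had it in all 10 and 378 in 1 only. Of the 1067, 1062 had it in a control and 241 in a K27M library. At coding genes H3K27me3 was present in at least 1 library at 34.4%, of which 16.7% had it in all 10.

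CpG density and distance from coding genes went with both marks. The median promoter held 1.03 CpG per 100 bp at lincRNA genes and 2.43 at coding genes, with GC contents of 44.9% and 49.5%. In control cultures H3K4me3 was present at 1.66% of the 2842 lincRNA promoters with under 1 CpG per 100 bp, 11.2% of the 2856 with 1 to 2, 55.8% of the 534 with 2 to 4 and 73.0% of the 71 with 4 or more. Coding promoters of the same classes stood higher, at 3.63%, 29.0%, 89.5% and 97.4%. H3K27me3 in controls was present at 7.02%, 12.3%, 28.5% and 21.7% of lincRNA promoters in the same order, and in K27M at 1.60%, 2.87%, 15.5% and 18.3%. By distance, H3K4me3 in controls was present at 19.2% of the 347 lincRNA promoters 5 to 10 kb from a coding start, 14.5% of the 2082 at 10 to 50 kb, 11.0% of the 2382 at 50 to 200 kb and 5.67% of the 1492 beyond 200 kb. For H3K27me3 these shares were 19.1%, 13.9%, 11.0% and 6.74% in controls and 9.74%, 4.49%, 2.85% and 1.89% in K27M.

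**Figure D2:**
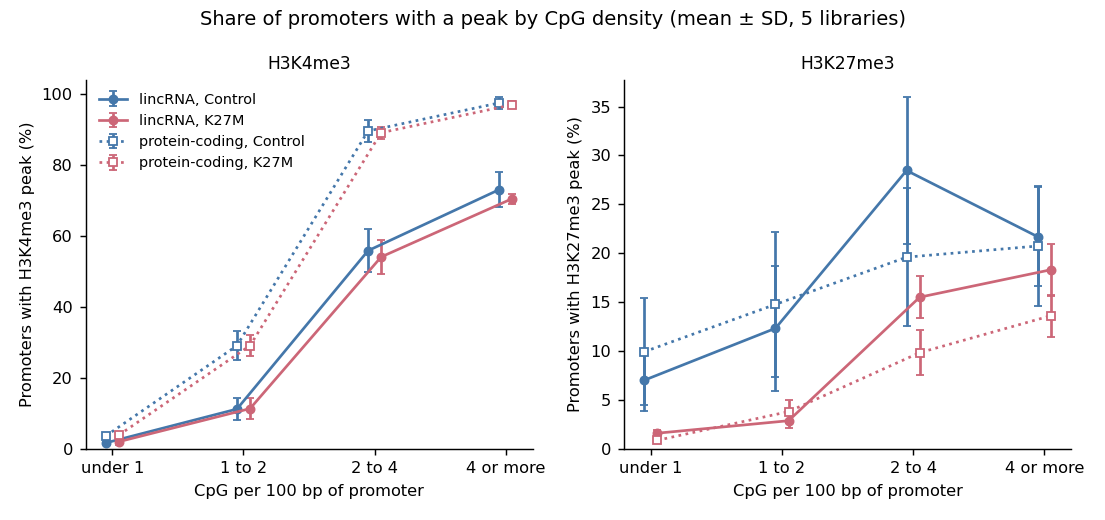
Share of promoters with an H3K4me3 peak (left) or an H3K27me3 peak (right), in percent, by CpG per 100 bp of promoter; points are means over 5 libraries and bars are SD. H3K4me3 at lincRNA promoters (solid) rises from 1.66% to 73.0% in controls and stays under coding promoters (dotted) of the same class, and the gap in H3K27me3 between control and K27M narrows in the densest class.

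H3K27me3 at lincRNA genes was lower in K27M than in the matched control in all 5 pairs. In brainstem 770 and 353 genes had a peak in controls and 149 and 186 in K27M, for cultures 59 and 61. In telencephalon 234, 608 and 743 genes had one in controls and 112, 182 and 171 in K27M, for cultures 59, 60 and 61. The 2 genotypes did not overlap, since the highest K27M value, 186, lay under the lowest control, 234. At coding genes they did overlap, with telencephalon control 59 at 9.86% and K27M libraries at up to 11.3%. The mean share of lincRNA genes was 11.8% ± 5.20 (SD, n = 5) in controls and 3.49% ± 0.664 (SD, n = 5) in K27M. Per pair the log2 ratio of K27M to control was -2.37 and -0.92 in brainstem and -1.06, -1.74 and -2.12 in telencephalon, with a mean of -1.64 ± 0.64 (SD, n = 5), a ratio of 0.320 (exact sign-flip permutation test, p = 0.0625, the smallest that 5 pairs allow). An exact test that permuted genotypes within each region and ignored the pairs gave p = 0.0167. With peaks of at least 3-fold enrichment alone, the mean log2 ratio was -0.82, with p = 0.0625 by the same sign-flip permutation test. Without telencephalon culture 59 it was -1.79.

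Much of the genome lost peaks in the same libraries. The autosomal sequence under H3K27me3 peaks was 26.2 to 105.9 Mb in controls and 12.5 to 23.1 Mb in K27M, a log2 ratio of -1.70 ± 0.64 (SD, n = 5). Set against this, the difference at lincRNA genes was small, with 7.02 to 8.94 marked genes per Mb covered in controls and 7.04 to 8.98 in K27M and a difference in log2 ratio of 0.06 ± 0.19, lower in 2 of 5 pairs (exact sign-flip permutation test, p = 0.5625). Coding genes lost less than the covered sequence, by 0.63 ± 0.23 on the log2 scale in 5 of 5 pairs (exact sign-flip permutation test, p = 0.0625). The measures differ in kind, since a gene counts as marked with 1 bp of overlap, while covered sequence also falls when a peak narrows. The share of coding genes with a peak fell to 9.71% ± 1.99 from 21.4% ± 7.90, a log2 ratio of -1.07 ± 0.43. The log2 ratio was lower at lincRNA than at coding genes in 5 of 5 pairs, by -0.58 ± 0.23 (exact sign-flip permutation test, p = 0.0625; p = 0.0167 without the pairs). Counted over promoters in place of genes it was -0.49 ± 0.19, lower in 5 of 5 pairs. In an alternative added after the data were seen, these coding promoters were weighted to the CpG classes of lincRNA promoters with H3K27me3 in the matched control. The difference was then 0.20 ± 0.16, and in 0 of 5 pairs was the lincRNA value lower.

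Within CpG classes, lincRNA promoters lost the most where CpG was sparse. On average over pairs the log2 ratio was -2.02 at under 1 CpG per 100 bp, -1.94 at 1 to 2, -0.84 at 2 to 4 and -0.22 at 4 or more, where each library held only 11 to 19 marked lincRNA promoters. At coding promoters these ratios were -3.40, -1.83, -0.94 and -0.56. The difference was 1.37 in the sparsest class, where coding promoters had the lower value in 5 of 5 pairs (exact sign-flip permutation test, p = 0.0625), and -0.11, 0.09 and 0.34 in the others (exact sign-flip permutation tests, p = 0.25, 0.375 and 0.125).

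**Figure D3:**
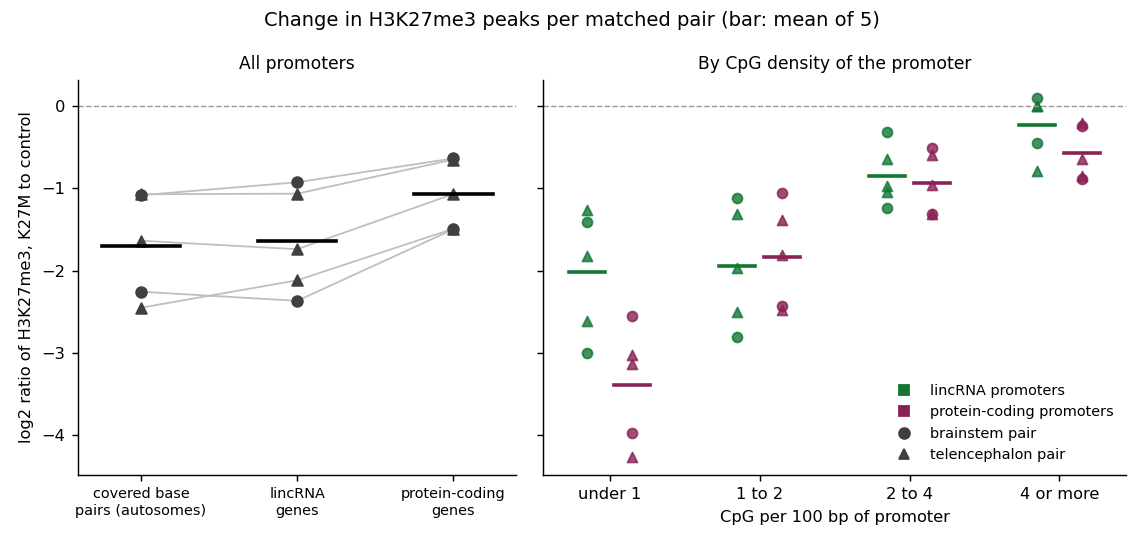
Log2 ratio of K27M to control for H3K27me3, per matched pair (circles brainstem, triangles telencephalon, bars the mean of 5), for covered base pairs, lincRNA genes and coding genes (left) and by CpG per 100 bp of promoter (right). LincRNA genes (-1.64) lie with the covered sequence (-1.70) and under coding genes (-1.07), and both kinds of promoter approach 0 as CpG density rises.

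The H3K27me3 peaks found at lincRNA promoters in K27M had a larger median width and enrichment than those found in controls. The median width was 1846.8 bp ± 133.5 (SD, n = 5) in controls and 3372.9 bp ± 707.8 (SD, n = 5) in K27M, a ratio of 1.80 per pair, higher in 5 of 5 pairs (exact sign-flip permutation test, p = 0.0625). The median fold enrichment was 1.40 times higher in K27M, in 5 of 5 pairs. At coding promoters enrichment was 1.39 times higher and width 1.09 times (for width, exact sign-flip permutation test, p = 0.125). These medians are over different promoters in each genotype, since most control peaks had no K27M counterpart. At the 87 genes with H3K27me3 in all 10 libraries, where the promoters are the same, the median width was smaller in K27M in each pair. It was 19.5 kb in control and 9.17 kb in K27M of brainstem culture 59, and 14.6 and 10.8 kb in brainstem culture 61. In telencephalon it was 9.67 and 6.63 kb in culture 59, 23.3 and 13.0 kb in culture 60 and 20.1 and 11.5 kb in culture 61. Their median enrichment was higher in K27M in 4 of the pairs and 9.11 against 9.09 in telencephalon culture 60, as a description with no test, since presence chose these genes.

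Peaks of both marks in the same culture were found at 128, 77, 39, 151 and 180 lincRNA genes in controls (brainstem 59 and 61, then telencephalon 59, 60 and 61) and at 43, 41, 24, 50 and 55 in K27M. Each K27M count lay under its own control, although telencephalon control 59, at 39, lay within the K27M range. The mean log2 ratio was -1.30 ± 0.46, lower in 5 of 5 pairs (exact sign-flip permutation test, p = 0.0625). In a comparison added after the data were seen, coding genes with both marks went from 3833, 2394, 1005, 3722 and 4083 in controls to 1679, 1647, 757, 1896 and 1686 in K27M, a log2 ratio of -0.88 ± 0.39. The lincRNA ratio lay under the coding ratio by -0.42 ± 0.12 in 5 of 5 pairs (exact sign-flip permutation test, p = 0.0625). It lay above that of the covered sequence (-1.70) by 0.40 ± 0.31 in 5 of 5 pairs (exact sign-flip permutation test, p = 0.0625).

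Each lincRNA gene was given a state in each region by the peaks that its control cultures shared. Both marks stood at 46 genes (1.00%) in brainstem, H3K4me3 alone at 276, H3K27me3 alone at 199 and neither at 4065. In telencephalon 94 genes (2.05%) had both, 354 had H3K4me3 alone, 259 had H3K27me3 alone and 3879 had neither. Across all autosomal genes 4.89% were bivalent in brainstem and 7.45% in telencephalon, and among coding genes 9.40% and 14.0%. Of the 97 lincRNA genes bivalent in either region, 43 were so in both. Of the genes bivalent in telencephalon, 26 had H3K27me3 only, 17 had H3K4me3 only and 8 were unmarked in brainstem. The telencephalon to brainstem ratio of bivalent genes was 2.04. It was 1.93 without telencephalon culture 59, 0.739 without 60, which left the cultures that brainstem also had, 0.717 without 61, and 0.593 where every control culture had to hold the peak. Promoters of bivalent genes held a median of 2.45 CpG per 100 bp in brainstem and 2.37 in telencephalon, and those with H3K27me3 only 1.30 and 1.23, against 0.967 at unmarked genes of both regions.

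The nearest coding gene of a lincRNA gene with H3K27me3 often had that mark too. In brainstem controls it did for 18 of 46 bivalent genes (39.1%), 99 of 199 with H3K27me3 only (49.7%), 32 of 276 with H3K4me3 only (11.6%) and 697 (17.2%) of the unmarked genes. In telencephalon controls these shares were 39.4%, 50.6%, 19.2% and 22.6%.

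The share of genes with H3K27me3 in K27M was higher among bivalent lincRNA genes than among those with H3K27me3 only in all 5 pairs, and part of this gap was present in the matched controls. In the brainstem K27M libraries 28 and 31 of 46 bivalent genes had a peak, and 108 and 123 of 199 with H3K27me3 only. In the telencephalon K27M libraries it was 43, 60 and 58 of 94, and 67, 118 and 110 of 259. The mean share was 59.9% ± 8.31 (SD, n = 5) for bivalent genes and 46.0% ± 13.6 (SD, n = 5) for genes with H3K27me3 only, a difference of 13.9 points ± 7.17 (exact sign-flip permutation test, p = 0.0625). It was 6.60 and 5.58 points in brainstem and 19.9, 18.3 and 19.2 in telencephalon. In the matched controls, which helped to set the states, the shares were 91.2% and 86.5%, and the gaps 0.339 and 6.71 points in brainstem and 9.20, 5.02 and 2.60 in telencephalon. In brainstem culture 61 the control gap was thus larger than that in K27M. Coding genes had such a gap too, with the mark in K27M at 65.0% of bivalent genes and 44.6% of those with H3K27me3 only. Bivalent lincRNA genes differed from bivalent coding genes by -5.07 points ± 7.96, lower in 4 of 5 pairs (exact sign-flip permutation test, p = 0.3125). This difference was -13.6 and -11.8 points in brainstem and 5.63, -5.14 and -0.45 in telencephalon, and was 0.0100 points without either brainstem culture, since a consensus needs both. H3K4me3 was present in K27M at 81.6% ± 12.6 (SD, n = 5) of the bivalent lincRNA genes and 88.0% ± 10.3 (SD, n = 5) of those with H3K4me3 only, lower in 4 of 5 pairs (exact sign-flip permutation test, p = 0.125). In matched controls the bivalent shares were 100% and 97.8% in brainstem and 59.6%, 96.8% and 97.9% in telencephalon. For H3K4me3 only they were 99.3%, 98.9%, 65.3%, 94.9% and 98.6% in the same order. Coding genes in K27M showed a gap too, at 92.1% and 99.1%, lower in 5 of 5 pairs (exact sign-flip permutation test, p = 0.0625).

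LincRNA genes whose H3K27me3 peak also reached a coding promoter made up a larger part of those marked in K27M. The share was 7.14% and 11.0% in brainstem controls and 21.5% and 20.4% in their K27M partners. In telencephalon it was 11.5%, 9.38% and 7.94% in controls and 25.9%, 19.8% and 20.5% in K27M. The genotypes did not overlap, at 9.41% ± 1.90 (SD, n = 5) and 21.6% ± 2.47 (SD, n = 5), a difference of 12.2 points ± 2.26 in 5 of 5 pairs (exact sign-flip permutation test, p = 0.0625; p = 0.0167 without the pairs). It was 4.02 points for lincRNA promoters over 20000 bp from a coding start, 20.0 with no minimum distance and 7.64 with peaks of at least 3-fold enrichment. In a comparison added after the data were seen, genes whose control peak reached a coding promoter kept a peak in K27M in 48 of 55 and 37 of 39 cases in brainstem and in 27 of 27, 47 of 57 and 45 of 59 in telencephalon. The other marked genes kept one in 97 of 715, 133 of 314, 81 of 207, 134 of 551 and 118 of 684 cases in the same order. The means were 88.2% ± 9.49 and 27.3% ± 12.9 (SD, n = 5), a difference of 60.8 points ± 7.83 (exact sign-flip permutation test, p = 0.0625). The control peaks that reached a coding promoter were also longer, with medians of 28.4 to 37.0 kb against 1.49 to 1.68 kb for the others, and the part of length in this difference was not tested.

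**Figure D4:**
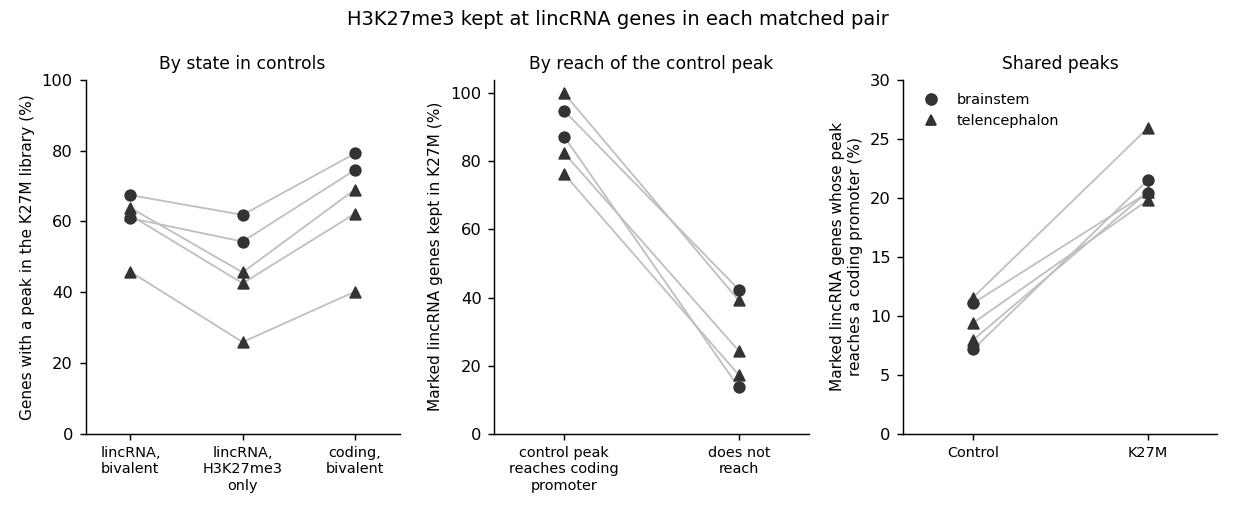
H3K27me3 at lincRNA genes in each matched pair (circles brainstem, triangles telencephalon; lines join values of a pair, in percent). Left, genes of each control state with a peak in the K27M library; middle, marked genes that kept a peak in K27M by whether the control peak reached a coding promoter (means 88.2% and 27.3%); right, marked genes whose peak reaches a coding promoter, at means of 9.41% in controls and 21.6% in K27M.

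Of the 168 lincRNA genes with H3K27me3 in every control library, 87 (51.8%) also had it in every K27M library and 26 (15.5%) in none. Among coding genes these shares were 63.9% and 8.13%, and among all autosomal genes 61.1% and 10.5%. The 87 genes were 1.90% of lincRNA genes, against 3.47% of all autosomal genes and 5.76% of coding genes. The 26 genes were 0.567%, against 0.597% of all autosomal genes, so their share was near the background. With peaks of at least 3-fold enrichment the counts were 50 marked throughout and 1 marked in controls alone. Leaving out telencephalon culture 59 gave 79 genes marked in controls alone, and leaving out brainstem culture 61 gave 47. No lincRNA gene had H3K27me3 in every K27M library and no control, and the share over all autosomal genes was 0%.

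At the 87 genes with H3K27me3 throughout, the nearest coding start was a median of 28.5 kb away, their promoters held 1.97 CpG per 100 bp, and 51 (58.6%) had a nearest coding gene with H3K27me3. These neighbours included *Hand2*, *Tbx5* and *Nkx2-5*, factors of heart development, *Tfap2a* and *Tfap2b*, *Foxa2* of the endoderm and floor plate, *Pax2* and *Six2* of the kidney, *Pdx1* and *Ptf1a* of the pancreas, *Pou4f1* of sensory neurons and the Hox genes *Hoxb9*, *Hoxb13*, *Hoxc11*, *Hoxd1* and *Hoxd3*, named here after their values were seen. The 87 genes had 73 different neighbours, since several share one, and among these were also genes of other kinds, such as *Ctnnb1*, *Smug1*, *Mtx2*, *Tbca*, *Ythdf1* and *Usp24*. No list was tested over these neighbours. At *Gm10830* and *Gm28876*, whose neighbour is *Smug1*, the peak was not always separate from that of *Hotair* in the HoxC cluster. Their highest enrichments equalled those at *Hotair* in brainstem controls (10.1), brainstem K27M (28.2) and telencephalon controls (17.2). In telencephalon K27M the highest values differed, at 7.36 and 29.5. The peaks of the 87 genes were long, with medians of 9.67 to 23.3 kb in controls and 6.63 to 13.0 kb in K27M. H3K4me3 was absent from 39 of the 87 in all libraries and present in all 10 at 13. At the 26 genes marked in controls alone the median distance was 77.6 kb, CpG density 1.12 per 100 bp, peak length 0.728 to 3.38 kb, and 6 (23.1%) had a neighbour with H3K27me3. Presence chose these genes, so their enrichments are descriptions. The median enrichment was 3.56 to 9.11 in controls and 4.51 to 12.7 in K27M for the 87 genes, and 2.50 to 2.94 in controls for the 26.

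*5033428I22Rik* (chr8:57332118-57354580), whose printed promoter lies 19.8 kb from *Hand2*, had the highest mean H3K27me3 enrichment of the 87. It measured 8.03 and 9.64 in brainstem controls and 29.5 and 37.0 in brainstem K27M. In telencephalon it measured 6.40, 18.2 and 10.9 in controls and 11.7, 27.7 and 32.6 in K27M. Enrichment was higher in K27M in each pair, on a scale set against each library's own input and background. Its H3K4me3 was weak, at 6.88 and 3.46 in telencephalon controls 60 and 61 and absent elsewhere. The peak is shared with the neighbouring *Gm34030*. *Gm11378*, 6.65 kb from the mesenchymal factor gene *Foxf2*, kept both marks in all 10 libraries. Its H3K27me3 enrichment was 4.00 to 18.4 in controls and 8.60 to 31.4 in K27M, and its H3K4me3 2.60 to 18.7 and 2.98 to 8.58. *D130079A08Rik*, 8.68 kb from *Pou4f1*, had H3K4me3 in 4 of 5 controls, at 2.61 to 19.4, and in 0 of 5 K27M libraries, while H3K27me3 was present in all 10. *Rncr4*, a retinal non-coding RNA, had H3K4me3 in 4 of 5 controls and 1 of 5 K27M libraries and H3K27me3 in all 10. Over the 87 genes, H3K4me3 was present at 28, 24, 17, 41 and 45 in controls and 25, 22, 19, 24 and 27 in K27M, a difference of -7.6 genes ± 9.24, lower in 4 of 5 pairs (exact sign-flip permutation test, p = 0.1875).

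*CT033772.2* (chr17:32863662-32877942), 8.14 kb from *Zfp870*, led the genes marked in controls alone. Its H3K27me3 enrichment was 3.72 and 2.94 in brainstem controls and 2.19, 4.32 and 4.39 in telencephalon controls, with no peak in K27M and no H3K4me3 in any library. *1700012I11Rik* had 4.11, 2.51, 2.93, 4.09 and 3.51 in the same order, again with no K27M peak and no H3K4me3. *Gm26700*, whose start lies 61 bp from a start of *Rmst*, had 2.75, 2.93, 3.92, 3.72 and 3.15 and no K27M peak. It shares its H3K4me3 peak with *Rmst*, and that peak was present in all 10 libraries.

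The named lists held 3 imprinted, 7 broadly expressed, 5 neural, 2 Hox-associated and 9 small RNA host genes that met the rule, out of 11, 13, 26, 9 and 25 symbols. Of these 26 genes, 21 had H3K4me3 in all 10 libraries and 3 (*Mirg*, *Hotair* and *Halr1*) in none. H3K27me3 was present in a control at 13 and in a K27M library at 7. All 7 broadly expressed members had H3K4me3 throughout. *Malat1*, an abundant nuclear RNA, measured 9.54 to 54.4, lowest in telencephalon control 59, and had no H3K27me3. *Neat1*, the scaffold of paraspeckles, and *Pvt1*, the neighbour of *Myc*, also had no H3K27me3. A control H3K27me3 peak was found at 2 of the 7. *Epb41l4aos* had it in brainstem control 59 alone, at 2.196, and *Miat*, a neural nuclear RNA, in 4 of 5 controls, at 1.68 to 5.32, and in 4 of 5 K27M libraries, at 2.42 to 4.37.

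All 9 host genes had H3K4me3 throughout. *Mir124-2hg*, a host of the neuronal miR-124, had H3K27me3 at 3.41 and 3.24 in brainstem controls and 3.73 in telencephalon control 60, and none in K27M. *Mir124a-1hg*, another miR-124 host, had none in controls and 2.55, 3.11 and 2.87 in brainstem K27M 59 and 61 and telencephalon K27M 61. *Mir155hg*, host of the immune miR-155, had it in 5 of 5 controls at 2.71 to 6.34 and in 3 of 5 K27M libraries at 2.43 to 2.66. *Mir9-3hg*, a host of miR-9, had it in 3 of 5 controls and 1 of 5 K27M libraries. *Mir670hg* was bivalent in the controls of both regions and had a peak of each mark in every culture. Its H3K27me3 was 6.72 to 11.0 in controls and 6.42 to 20.2 in K27M.

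Of the imprinted members, *Meg3*, expressed from the maternal chromosome, had H3K4me3 in all 10 libraries and H3K27me3 in 4 of 5 controls, at 2.12 to 3.41, and 0 of 5 K27M libraries. *H19* had H3K4me3 throughout and H3K27me3 in 1 control. Among neural members *Rmst*, known from neurogenesis, held both marks in all 10 libraries, with H3K27me3 at 4.47 to 6.60 in controls and 3.52 to 6.56 in K27M. Each mark was counted over any promoter of the gene, so the marks need not lie at the same promoter. *C130071C03Rik*, 68.5 kb from *Mef2c*, had H3K4me3 at 10.4 to 108 and no H3K27me3. *Hotair* (chr15:102944062-102947730), transcribed within the HoxC cluster 6.70 kb from *Hoxc11*, had no H3K4me3 and kept H3K27me3 in every library. It measured 10.1 and 9.78 in brainstem controls, 24.3 and 28.2 in brainstem K27M, 5.75, 17.2 and 11.9 in telencephalon controls and 10.7, 26.5 and 29.5 in telencephalon K27M. Enrichment at *Hotair* was higher in K27M than in control in each pair. As it is set against each library's own input and background, it does not compare amounts of the mark between libraries.

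**Figure D5:**
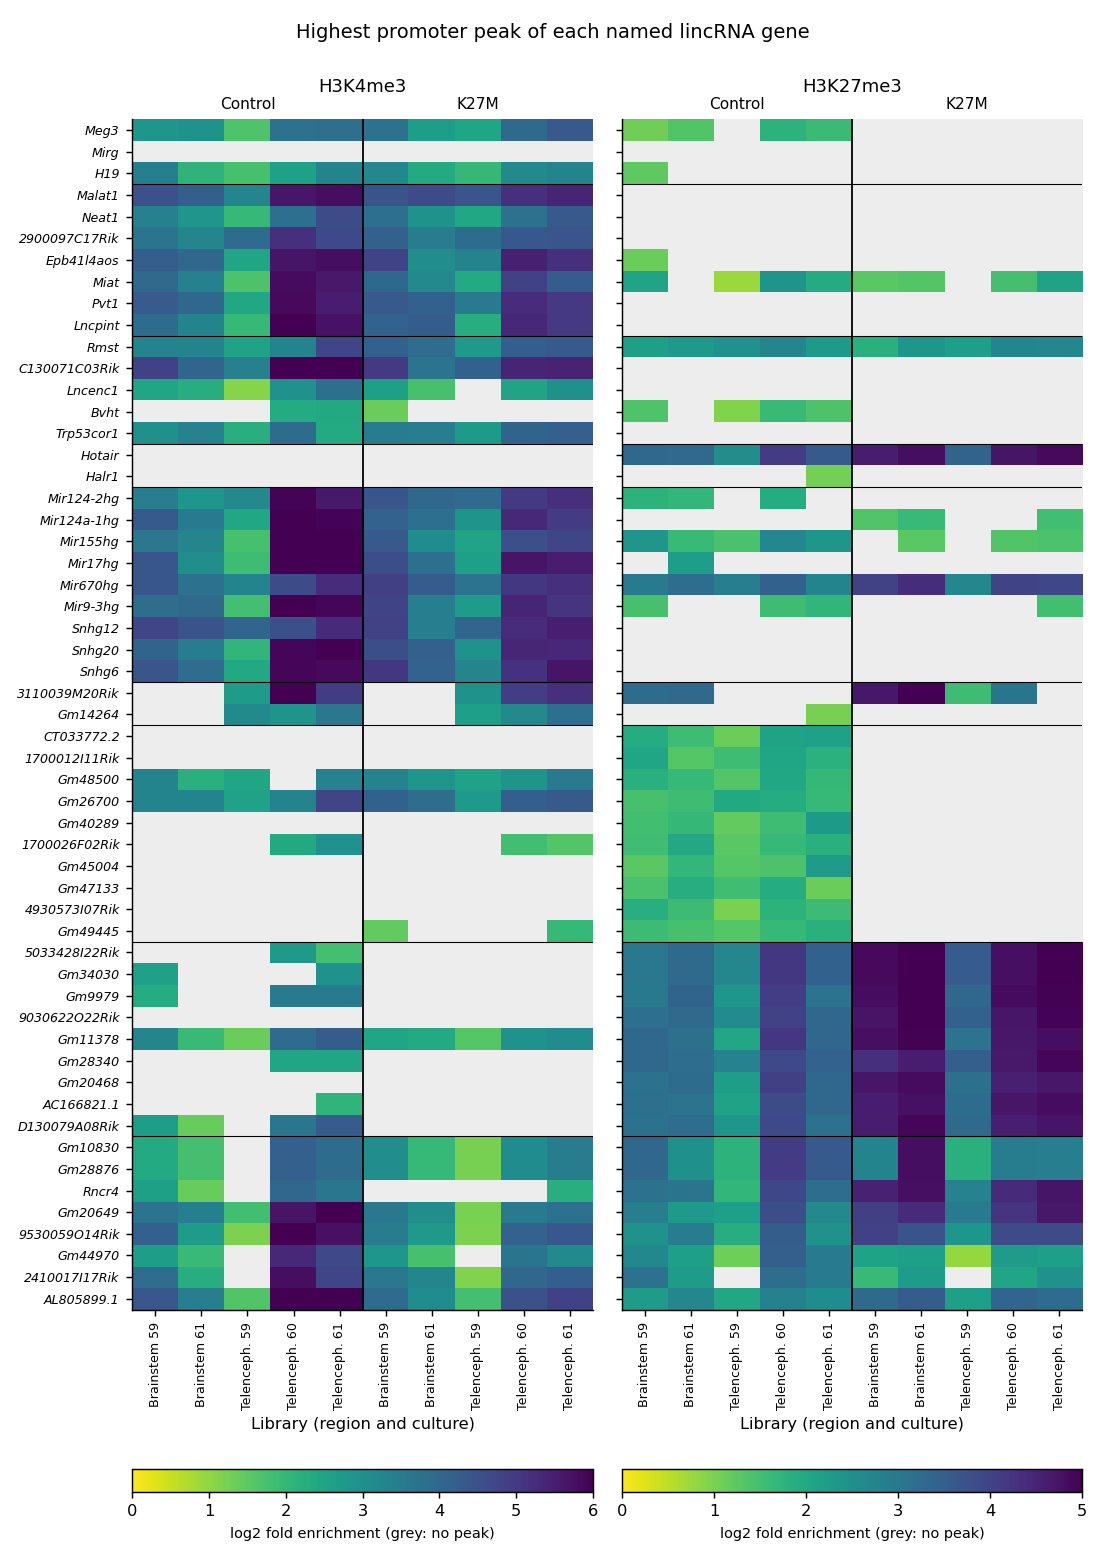
Highest promoter peak of each named lincRNA gene in each of 10 libraries per mark, as log2 fold enrichment over input (colour; grey means no peak), with controls left and K27M right of each panel. Genes from *CT033772.2* to *Gm49445* have weak H3K27me3 in controls alone, and those from *5033428I22Rik* to *D130079A08Rik* have strong H3K27me3 in all 10 libraries.

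Few lincRNA promoters separated the regions fully. H3K4me3 was present in every telencephalon and no brainstem library at 2 lincRNA genes, against 0.0039% of all autosomal genes, and these 2 were the only such genes of any type. The count was 9 without telencephalon culture 59 and 6 without brainstem culture 59. No lincRNA gene showed the opposite pattern, found at 0.0137% of all genes, and 2 did without brainstem culture 61. *3110039M20Rik* (chr12:49389652-49407360), printed above, starts in an intron of the coding gene *Gm43517*. Its H3K4me3 enrichment was 6.55, 111 and 31.1 in telencephalon controls and 7.60, 30.1 and 35.8 in telencephalon K27M, and no brainstem library had a peak. Its H3K27me3 was 9.37 and 9.62 in brainstem controls and 25.7 and 33.2 in brainstem K27M, absent from telencephalon controls, and 2.91 and 8.30 in telencephalon K27M 59 and 60. *Gm14264*, 60.4 kb from its nearest coding start, had H3K4me3 at 6.14 to 14.0 in the 6 telencephalon libraries.

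H3K27me3 was present in every brainstem and no telencephalon library at 3 lincRNA genes (*Gm5149*, *Gm33104* and *Gm47351*), against 0.0195% of all autosomal genes. It was present in every telencephalon and no brainstem library at 1 (*4921539H07Rik*), against 0.0254%. These 4 genes, named because the counts were small, had no H3K4me3 in any library, lay 105 to 572 kb from a coding start and had enrichments of 2.16 to 7.02.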

How the data were processed

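ChIP-seq for H3K4me3 and H3K27me3 was carried out on 10 OPC cultures, each library with its own input, and input libraries were not used here. Per the labels and the study's methods, the authors trimmed reads with Trim Galore 0.6.7, aligned them to mm10 with BWA 0.7.17-r1188, dropped blacklisted regions and ran MACS2 2.2.7.1 on every library, narrow for H3K4me3 and broad (cutoff 0.1) for H3K27me3, with duplicates kept. *Drosophila* spike-in chromatin did not enter the peak calls, so levels were not scaled between libraries. The deposited columns hold fold enrichment over input (a ratio), −log10 p-values and −log10 q-values. The deposited display score was not used. Read depth is not part of the peak lists.

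Promoters were taken from GENCODE M21 (GRCm38) with Python 3.11.15, numpy 2.4.6, scipy 1.17.1 and pandas 2.3.3; the study used another GENCODE release. A peak marked a promoter when it overlapped it by at least 1 bp. Control states came from peaks shared by at least 2 control cultures, by the combined-p rule of the study (for H3K4me3 a stringent p of 1e-10 and a weak p of 1e-06, for H3K27me3 1e-08 and 1e-04), rebuilt here and tested on simulated data. Shares, or log2 ratios of gene counts, were compared over the 5 matched pairs by two-sided exact sign-flip permutation (32 arrangements), since the study handled each control and K27M pair together. Across lincRNA genes, the deviations of same-numbered telencephalon libraries from their group means correlated at 0.48, 0.13 and 0.34 (H3K4me3) or 0.13, 0.08 and -0.02 (H3K27me3). Telencephalon libraries of different numbers gave -0.398 to 0.108 (H3K4me3) and -0.132 to 0.0649 (H3K27me3). Same-numbered brainstem libraries gave -0.12 and -0.0040. With only 2 brainstem cultures, different numbers give the same value with the opposite sign, so these say little about the pairing. The alternative permuted genotypes within each region (120 arrangements). Other alternatives changed peak filters, windows, overlap, distance from coding genes, consensus rule and cultures.

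Genes were named by rule: every lincRNA gene on 5 lists, up to 10 genes by mean fold enrichment for each presence rule, and up to 10 by mean H3K27me3 enrichment in controls among genes bivalent in both regions. Members and lists were chosen with earlier results of these data known. Some values are not reported here.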

Additional observations from a re-analysis of the deposited data

How the results depend on the processing

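Direction, side of the 0.05 threshold and, for counts, a factor of 1.5 held in 52 of 63 values without a culture and in 124 of 143 values under other alternatives. By the sign-flip permutation test the side of the threshold could not change, since 5 or fewer pairs cannot go below p = 0.0625. For tested values these counts thus show only that the direction held. The fit without the replicate block, which permuted genotypes within each region, took p for the H3K27me3 log2 ratio (-1.64), its difference from coding genes (-0.58) and the reach of a coding promoter (12.2 points) from 0.0625 to 0.0167, each by exact permutation, and changed no other call. The H3K4me3 difference, 0.03 points, turned to -0.0262 with a −log10 q of at least 3, to -0.105 with an overlap of at least 500 bp, and ranged from -0.469 to 0.431 without a culture. Weighting to CpG classes, chosen after the data were seen, turned the lincRNA minus coding difference to 0.20. With no minimum distance, bivalent lincRNA genes kept H3K27me3 0.175 points more often than bivalent coding genes, and without a culture the difference ran from -7.56 to 0.0100. The regional bivalent ratio turned to 0.593 with a peak in every control and to 0.739 with cultures 59 and 61, and ranged from 0.717 to 1.93 without a telencephalon culture. It has no value without a brainstem culture, since a consensus needs 2. Genes with H3K27me3 in controls alone, 26, became 5 with the q filter, 1 with 3-fold enrichment, 10 and 48 with windows of 500 and 5000 bp, 9 with the overlap, and 27 to 79 without a culture. Genes marked throughout, 87, became 50 with 3-fold enrichment, 57 beyond 20000 bp and 143 with no minimum distance. Genes with telencephalic H3K4me3 alone, 2, became 0 with the wider window, 1 beyond 20000 bp and 2 to 9 without a culture, and those with brainstem H3K4me3 alone 0 to 2. The causes were not tested.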

Other observations

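H3K27me3 was found in a K27M library and in no control at 5 lincRNA genes. Of these, *4930452G13Rik*, *4933404I11Rik*, *BB123696* and *Gm49042* had it in 1 library each, and *Mir124a-1hg* in 3. Peaks with a −log10 q of at least 3 left *Mir124a-1hg* with 1. The first 4 genes were named after their values were seen.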
